A study of Mus musculus with 21 samples.

Results

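The proteasome is the protease complex that degrades ubiquitin-tagged proteins, and its subunit genes were followed across hematopoietic stem cells (HSCs) of mice given the cytotoxic drug 5-fluorouracil (5-FU). The genes were taken from the count table by symbol: Psm followed by a letter from a to g and a number. This rule matched 51 of 21000 symbols. Of these, 49 are proteasome genes, and 2 only carry the name of a partner, namely Psmc3ip, a meiotic recombination gene, and Psme3ip1, an interactor of Psme3. The rule used no measured value. RNA sequencing was available for 21 libraries in 7 groups of 3, each made from 3000 to 3500 wild type bone marrow HSCs (CD150+CD48- cells of the Lin- Sca-1+ c-Kit+ gate). Mice aged 10 weeks received PBS or 5-FU at 150 mg/kg intraperitoneally, either 1 time or 3 times at intervals of 21 days. HSCs taken at day 6, with the administration on day 1, formed the groups PBS-1 d6, 5FU-1 d6, PBS-3 d6 and 5FU-3 d6. HSCs taken at day 21 after 5-FU formed the groups 5FU-1 d21 and 5FU-3 d21, and untreated mice aged 2 years gave the group old. PBS groups were taken at day 6 alone, so both day 21 groups were compared with PBS-treated HSCs of day 6. Early after 5-FU, the study widened the sorting gate to cells with dim c-Kit and left out the Mac-1 antibody. The study describes the replicates as independent experiments without naming the groups, and the labels do not say that libraries came from separate animals, so that p-values measure the spread between these libraries.

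The complex has a barrel-shaped core with outer rings of alpha subunits (Psma genes) and inner rings of beta subunits (Psmb genes), and the proteolytic sites lie inside on Psmb5, Psmb6 and Psmb7. A regulatory particle of ATPases (Psmc genes) and non-ATPase subunits (Psmd genes) caps the core, recognises ubiquitin chains, unfolds the substrate and feeds it in. Other activators (Psme genes) open the core without ubiquitin, and Psmf1, Psmg1 to Psmg4 and some Psmd genes encode an inhibitor and assembly chaperones that are not part of the finished particle. Cells of the immune system, and cells exposed to interferon-gamma, replace the catalytic subunits with Psmb8, Psmb9 and Psmb10, which form the immunoproteasome. In most cells the proteasome genes are switched on together by the transcription factor Nfe2l1 when proteolysis falls short. HSCs are known for low rates of protein synthesis and for sensitivity to misfolded protein.

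The 49 genes comprised 8 alpha and 8 beta core genes, the 3 immunoproteasome genes, 6 regulatory ATPases, 11 non-ATPase subunits, 3 chaperones of the regulatory base (Psmd5, Psmd9, Psmd10), 5 activators and 5 genes of the inhibitor and the core assembly chaperones. The genes were spread over 16 chromosomes, with 9 on chromosome 11. On chromosome 14 Psme1 and Psme2 were separated by 5913 bases, and Psmb5 and Psmb11 by 7315 bases. On chromosome 17 Psmb9 and Psmb8 were separated by 10865 bases. Psmb11, a beta subunit of the thymus, had 0 counts in 14 of the 21 libraries and at most 7 counts in any, and was left untested. The other 48 proteasome genes passed the filter on low counts in every comparison.

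One class of control element in proteasome promoters is the antioxidant response element, the site bound by Nfe2l1 and Nfe2l2 with small Maf partners. Its core letters TGACNNNGC were searched on both strands in the 250 bases before the start used for each RefSeq promoter (GRCm38.p6). Promoters were at hand for 43 of the 51 symbols, and 5 of these (11.63%) held the letters, against 12.17% of all promoters searched. The 5 windows are shown because they are the whole set, with the matched letters in capitals and each window read 5′ to 3′ on the strand of its gene. Psmb5 is at chr14:54618014-54618062 on the minus strand, Psmb6 at chr11:70525328-70525356, Psmd12 at chr11:107479278-107479309, Psmc6 at chr14:45329577-45329625 and Psmd9 at chr5:123228139-123228187, the latter 4 on the plus strand.
Psmb5: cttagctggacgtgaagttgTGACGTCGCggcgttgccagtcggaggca
Psmb6: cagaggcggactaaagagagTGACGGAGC
Psmd12: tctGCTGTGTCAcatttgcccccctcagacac
Psmc6: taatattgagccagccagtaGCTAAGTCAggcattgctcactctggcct
Psmd9: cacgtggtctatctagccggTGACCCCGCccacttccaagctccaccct
In Psmd12 and Psmc6 the letters lie on the opposite strand. Those of Psmb6 lie before the start used for its promoter but after the first annotated base of the gene, chr11:70525324. The letters CCAAT, also on both strands, were in 16 of the 43 promoters (37.21%) and in 39.75% of all. Both shares lay close to those of all promoters, and a match of letters is not a bound site.

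Library totals lay between 22184885 and 38649033 counts, with a median of 26962256. Kit, Slamf1, Procr and Ly6a, from a list of 13 HSC markers, were measured in all 21 libraries, which does not by itself check HSC identity. Of the 13 markers, 3 rose and 5 fell in 5FU-1 d6 against PBS-1 d6. In 5FU-3 d6 against PBS-3 d6, 1 rose and 6 fell. Kit lay between 583 and 622 CPM (counts scaled to the normalized library total) in 5FU-1 d6 and between 728 and 778 CPM in 5FU-3 d6, below the 948 to 1162 CPM of the PBS groups. The wider gate admits cells with less c-Kit, and its part in this was not tested. The other 3 genes were higher in 5FU-1 d6 than in PBS-1 d6 in every library: Ly6a lay at 485 to 607 CPM against 254 to 280 CPM, Procr at 32.5 to 33.2 CPM against 25.3 to 26.3 CPM, and Slamf1 at 46.6 to 54.0 CPM against 38.2 to 45.2 CPM. In 5FU-3 d6 Procr lay at 15.1 to 23.6 CPM against 23.1 to 29.6 CPM in PBS-3 d6. Counts were bounded in a way that differs between genes. Among 6186 genes with a single RefSeq transcript, only 33 (0.5335%) had more than 2 counts per base of transcript, against 998 of 6297 genes with more transcripts (15.85%). Actb, one of the most abundant transcripts of any cell, stood at 1.19 counts per base, and Pkm, with 11 transcripts, at 67.9. Of the proteasome genes, 35 had a single transcript, with a median of 0.558 and a highest value of 0.898 counts per base, and 14 had more, with a median of 1.4 and a highest value of 5.42. How the counts were made is not given in the sources used here, and levels of different genes were therefore not ranked. Values of a gene, and ratios of paired genes, were compared only between libraries. A total of 31 proteasome genes fell among the single-transcript genes with at least 0.25 counts per base, called the dense single-transcript genes from here on.

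**Figure D1:**
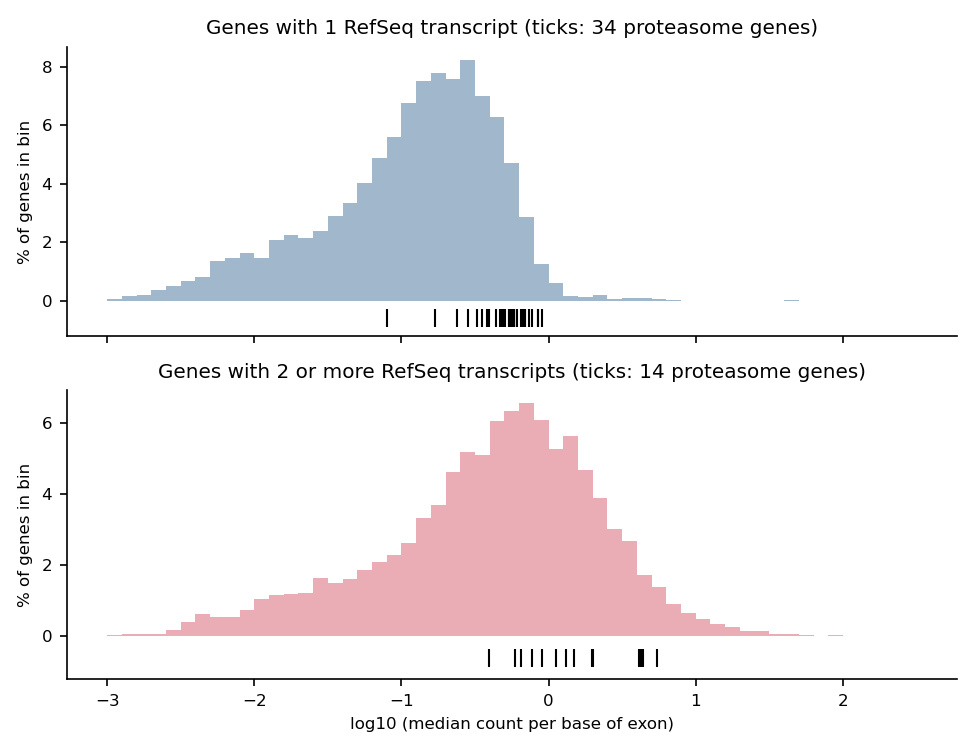
Histograms of the log10 of the median count per base of exon (horizontal axis) for genes with a single RefSeq transcript (upper panel) and with 2 or more (lower panel), as the percentage of genes in each bin (vertical axis), with a tick for each proteasome gene except Psmb11 (at 0 counts per base). On the linear scale few single-transcript genes (33 of 6186) lie above 2, and the proteasome genes among them end at 0.898, whereas those with more transcripts reach 5.42.

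In 5 of the 7 groups the summed level of the dense proteasome genes was lowest in the deepest library, and in PBS-1 d6 and 5FU-3 d21 it was not. In old HSCs it was 974, 814 and 943 CPM in replicates 1 to 3, whose totals were 23507025, 34857534 and 26962256 counts. In 5FU-1 d21 it was 901, 781 and 817 CPM at totals of 25270496, 36669644 and 33817653 counts. In 5FU-3 d21, where totals were close, the shallowest library had the lowest sum, 896 CPM, against 928 and 911 CPM. The part of depth in the fold changes of these genes was not tested. As an alternative chosen after seeing the data, these genes and all others were normalized and fitted apart, and its counts stand beside the results.

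To ask how 5-FU acts on the proteasome genes while HSCs cycle, 5FU-1 d6 was compared with PBS-1 d6. After 1 administration, 20 of the 48 tested genes were higher and 0 were lower in 5-FU-treated HSCs (quasi-likelihood F test of edgeR, Benjamini-Hochberg adjusted p below 0.05 over 12759 genes). Over all genes tested, 11.5% were higher and 10.6% were lower (1470 and 1357 genes, or 1127 and 1623 with library size alone as the normalization). The changes were small: the median log2 fold change of the 48 genes was 0.24 against -0.00056 for all genes tested, and the range ran from -0.10 for Psmf1 to 0.61 for Psma7. The 49 genes summed to 2453 ± 79.9 CPM in PBS-1 d6 and 3075 ± 50.8 CPM in 5FU-1 d6 (mean ± SD, n = 3 each). This sum rests on abundant genes such as Psma3, with means of 345 and 519 CPM in these groups. The 31 dense genes summed to 908 ± 31.2 and 1071 ± 25.5 CPM, and the other 18 to 1544 ± 52.9 and 2004 ± 66.3 CPM. In bulk libraries a higher share of cells expressing a gene and more RNA per cell cannot be told apart. The count fell to between 7 and 10 when each of the 6 libraries was left out in turn, and it was 8 with library size alone and 8 with the replicate number as a block. It was 21 when the dense single-transcript genes were fitted apart, which lowered the median to 0.15. In that fit 17.2% of all dense genes and 11.1% of the others were higher. In the fit of all genes together, 14.5% of all 1980 dense genes were higher and 5.86% lower, with a median of 0.11. The 31 dense proteasome genes had 14 higher there, with a median of 0.24. Psma3, Psma7, Psmd1, Psmd12, Psme2 and Psme2b passed under all 14 alternatives (8 settings and 6 fits without 1 library).

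In the alpha ring, whose subunits form the gate of the core, Psma1, Psma3, Psma6 and Psma7 rose. Psma7 stood at 180, 175 and 205 CPM in PBS-1 d6 and at 275, 292 and 294 CPM in 5FU-1 d6. Every 5-FU library was above every PBS library, with a log2 fold change of 0.61 ± 0.08 (SE, edgeR adjusted p = 0.00366). Here and below, a lack of overlap in a called gene rests on the same libraries as the test and adds no support to it. Psma3 stood at 347, 321 and 368 CPM against 493, 544 and 519 CPM, again with no overlap, and a log2 fold change of 0.58 ± 0.07 (edgeR adjusted p = 0.00357). Psma3 shares 21.32% of its 75-base stretches with 3 other loci that carry Gm symbols, and its reads are in part uncertain. Psma1 and Psma6 had log2 fold changes of 0.26 and 0.29. Psma2, Psma4 and Psma5 had values of 0.24, 0.24 and 0.27 and did not pass. Psma8, a testis-specific alternative to Psma7, was listed at 18.5 to 23.4 CPM in these 6 libraries and had a log2 fold change of 0.07 ± 0.12 (edgeR adjusted p = 0.723).

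In the beta rings 3 of 7 tested genes rose, and 2 of them carry proteolytic sites. Psmb5, the chymotrypsin-like subunit, stood at 21.3, 19.6 and 22.1 CPM in PBS-1 d6 and at 27.4, 25.9 and 26.4 CPM in 5FU-1 d6. Its groups did not overlap, and its log2 fold change was 0.33 ± 0.08 (edgeR adjusted p = 0.0302). Psmb7, the trypsin-like subunit, stood at 14.7, 14.5 and 14.1 CPM against 19.6, 17.7 and 19.3 CPM, with a log2 fold change of 0.37 ± 0.09 (edgeR adjusted p = 0.0242). Psmb6, the caspase-like subunit, stood at 23.9, 23.8 and 26.5 CPM against 31.1, 27.2 and 28.9 CPM. Its log2 fold change of 0.22 ± 0.09 did not pass (edgeR adjusted p = 0.111). The structural subunit Psmb3 rose by 0.29, and Psmb1, Psmb2 and Psmb4 had values of 0.20, 0.16 and 0.25. Psmb5 shares 40% of its 75-base stretches with other loci, and 34.91% of the exons of Psmb7 lie opposite to Nek6, so that reads of these genes can be mixed with those of their neighbours and copies.

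The immunoproteasome genes did not pass. Psmb8 stood at 36.6, 35.8 and 40.2 CPM in PBS-1 d6 and at 40.8, 37.1 and 37.8 CPM in 5FU-1 d6, so that the groups overlapped. The log2 fold changes were 0.03 ± 0.08 for Psmb8, 0.04 ± 0.08 for Psmb9 and 0.06 ± 0.08 for Psmb10. The edgeR adjusted p-values of the 3 genes lay between 0.64 and 0.82.

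In the regulatory particle the non-ATPase subunits moved more often than the ATPases in number of calls, a difference that was not tested. Of the 6 ATPases Psmc5 rose, by 0.31 ± 0.08 on the log2 scale (edgeR adjusted p = 0.0278), and the other 5 had values between 0.14 and 0.25. Of the 11 non-ATPase subunits 8 rose. Psmd12, a subunit of the lid, stood at 32.1, 31.7 and 32.8 CPM in PBS-1 d6 and at 40.7, 42.3 and 41.4 CPM in 5FU-1 d6, with a log2 fold change of 0.36 ± 0.07 (edgeR adjusted p = 0.0117). Psmd1, a scaffold of the base, rose by 0.36, Psmd4, a ubiquitin receptor, by 0.32, and Psmd14, the deubiquitinase of the lid, by 0.29. Psmd3, Psmd6, Psmd8 and Psmd13 rose by 0.23 to 0.30. Psmd2, the second scaffold, Psmd7 and Psmd11 had values of 0.10 to 0.15 and did not pass.

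Outside the particle, the activator Psme2 and the assembly chaperones Psmg1 and Psmg3 rose. Psme2, which forms a ring with Psme1, stood at 128, 120 and 130 CPM in PBS-1 d6 and at 183, 199 and 181 CPM in 5FU-1 d6, with no overlap and a log2 fold change of 0.57 ± 0.07 (edgeR adjusted p = 0.00341). Its retrogene-like copy Psme2b rose by 0.54, but it shares 60.16% of its 75-base stretches with Psme2, and Psme2 shares 51.69% with it. Because of these shared stretches the 2 genes were not taken as independent measurements. Counts of Psme2 were between 9.87 and 13.03 times those of Psme2b in all 21 libraries, and the part of shared reads in this was not tested. Psme1, the neighbour and partner of Psme2, stood at 31.7, 30.3 and 35.3 CPM against 36.7, 35.1 and 36.2 CPM, with overlap and a log2 fold change of 0.14 ± 0.08 (edgeR adjusted p = 0.258). Psme3, the nuclear activator, had a value of 0.20 and Psme4, a large activator of the nucleus, of 0.27. Psmg3 stood at 34.3, 30.3 and 39.8 CPM against 47.3, 49.9 and 52.4 CPM, and rose by 0.51 ± 0.11 (edgeR adjusted p = 0.0191). Of the exons of Psmg3, 26.84% are shared with Gm26938 on the same strand. Psmg1 rose by 0.37, whereas its partner Psmg2 had a value of 0.14 and Psmg4 of 0.20. The inhibitor Psmf1 was at 72.7, 68.8 and 74.6 CPM against 69.0, 78.4 and 55.4 CPM, with a log2 fold change of -0.10 ± 0.13. The base chaperones Psmd5, Psmd9 and Psmd10 had values of 0.02, 0.05 and 0.02, with adjusted p-values of at least 0.811 by edgeR.

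**Figure D2:**
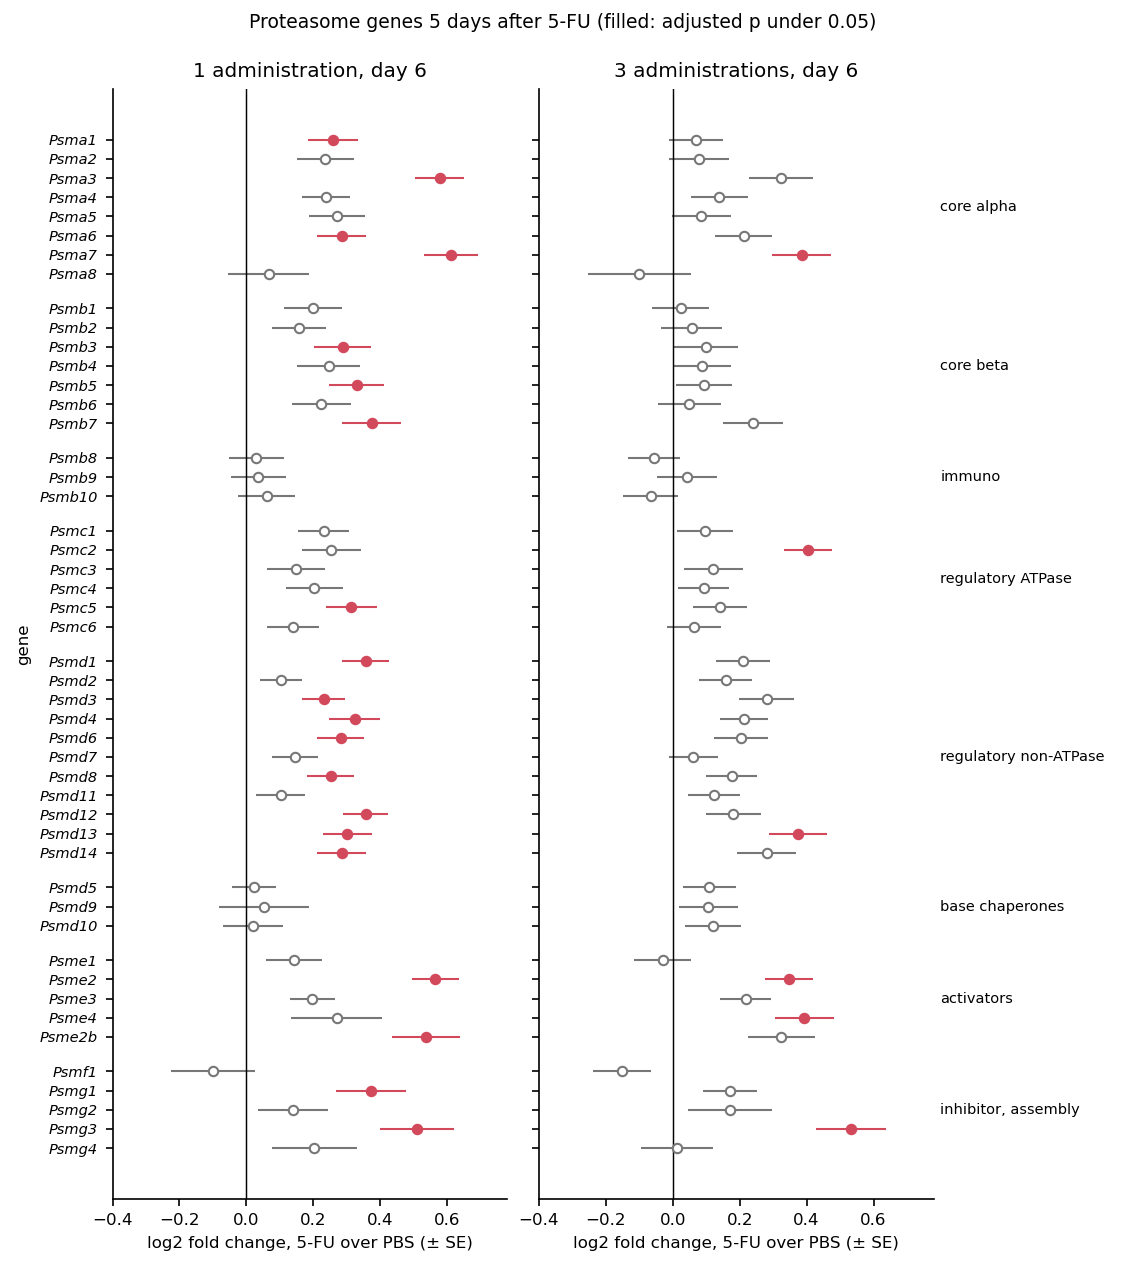
Log2 fold change with its standard error (horizontal axis) of the 48 tested proteasome genes, by subgroup (vertical axis), for 5-FU against PBS at day 6 after 1 and after 3 administrations, with filled symbols for an adjusted p below 0.05. Most points lie right of 0 after 1 administration, led by Psma7 at 0.61, whereas the immunoproteasome genes lie between -0.07 and 0.06 in both comparisons and Psmf1 is lowest in both.

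After 3 administrations the same question was asked of 5FU-3 d6 and PBS-3 d6. Here 6 of 48 genes were higher and 0 were lower, while 9.84% of all 12729 genes tested were higher and 8.3% were lower (1253 and 1057 genes, or 807 and 1462 with library size alone). The share of proteasome genes called was thus near that of all genes. The median log2 fold change was 0.12 against -0.01 for all genes tested, and 43 of the 48 values were above 0. The count was 2 without 5FU-3 d6 replicate 1 or PBS-3 d6 replicate 2, 3 without 5FU-3 d6 replicate 2 or PBS-3 d6 replicate 1, and 13 with DESeq2. It was 2 with library size alone, where the median fell from 0.12 to 0.02. It was 16 when the dense single-transcript genes were fitted apart, and in that fit 17.2% of all dense genes and 10.1% of the others were higher. Totals were 31358819 to 38649033 counts in 5FU-3 d6 and 27023725 to 31724107 counts in PBS-3 d6. In the fit of all genes together 1 of the 31 dense genes was called against 5 of the other 17, and of all genes tested 7.68% of the dense and 10.2% of the others were higher.

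The 6 genes were Psma7 of the alpha ring, Psmc2 of the ATPases, Psmd13 of the lid, the activators Psme2 and Psme4, and Psmg3 of the assembly chaperones. Psmg3 stood at 33.4, 30.3 and 35.2 CPM in PBS-3 d6 and at 50.9, 51.5 and 42.9 CPM in 5FU-3 d6, and rose by 0.53 ± 0.10 (edgeR adjusted p = 0.0159). The ATPase Psmc2 stood at 123, 118 and 114 CPM against 163, 162 and 152 CPM, and rose by 0.40 ± 0.07 (edgeR adjusted p = 0.0120). These 2 genes passed under all 14 alternatives. Psme4 stood at 15.5, 15.9 and 17.0 CPM against 21.4, 22.7 and 20.5 CPM, and rose by 0.39 ± 0.09 (edgeR adjusted p = 0.0248). Psma7 rose by 0.39 ± 0.09, from 210, 195 and 214 CPM to 272, 300 and 248 CPM (edgeR adjusted p = 0.0266). The lid subunit Psmd13 rose by 0.38 and Psme2 by 0.35, with adjusted p-values of 0.0263 and 0.0191 by edgeR. None of the 6, which were chosen by the test on these same libraries, overlapped between its 2 groups. Psmd13 lies opposite to Sirt3 over 7.642% of its exons.

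The catalytic genes did not pass after 3 administrations. Psmb5 stood at 21.4, 21.6 and 21.5 CPM in PBS-3 d6 and at 22.5, 25.1 and 22.2 CPM in 5FU-3 d6, with a log2 fold change of 0.09 ± 0.08. Psmb6 and Psmb7 had values of 0.05 ± 0.10 and 0.24 ± 0.09. The immunoproteasome genes Psmb8, Psmb9 and Psmb10 had values of -0.06 ± 0.08, 0.04 ± 0.09 and -0.07 ± 0.08. Psmf1 was again lowest, at -0.15 ± 0.09 (edgeR adjusted p = 0.275).

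Whether the effect of 5-FU differed between 3 administrations and 1 was tested over the 12 libraries of day 6. Column names of the 6 libraries of 1 administration carry a suffix of unstated meaning, and those of 3 administrations lack it. The suffix and the number of administrations cannot be told apart in this test. No proteasome gene passed this interaction test of edgeR, and DESeq2 also called 0. Psme2 alone had an unadjusted p below 0.05, with a difference of -0.21 on the log2 scale (edgeR adjusted p = 0.316). Of all 13227 genes tested, 0.34% passed with a larger and 0.31% with a smaller value after 3 administrations. The 48 differences ranged from -0.24 for Psma3 to 0.16 for Psmc2, with a median of -0.09. The smaller number of genes called after 3 administrations is therefore not shown to be a smaller effect.

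The immunoproteasome subunits take the place of their counterparts, so each pair was also read as a ratio within a library, in which the normalization factor cancels. Counts were divided by transcript length, and all 6 genes belong to the dense single-transcript genes, so that depth need not cancel. The ratio of Psmb8 to Psmb5 was 0.948, 1.01 and 1.01 in PBS-1 d6 and 0.822, 0.792 and 0.789 in 5FU-1 d6. It was 0.893, 0.909 and 0.959 in PBS-3 d6 and 0.857, 0.804 and 0.83 in 5FU-3 d6. In both comparisons every 5-FU library was below every PBS library, with log2 differences of -0.30 and -0.15. The ratio of Psmb10 to Psmb7 was also lower in every 5-FU library, by -0.31 after 1 and by -0.31 after 3 administrations. The ratio of Psmb9 to Psmb6 differed by -0.19 after 1 administration without overlap, and by -0.0049 with overlap after 3. The smallest p that an exact permutation test of 3 against 3 can give is 0.1, which was reached where groups did not overlap, and none of the 24 ratio comparisons could pass a threshold of 0.05. At day 21 the ratio of Psmb8 to Psmb5 was 0.974, 0.904 and 0.963 in 5FU-1 d21 and 1.04, 0.999 and 1.09 in 5FU-3 d21, and in old HSCs it was 1.05, 0.919 and 1.03. In 5FU-1 d21 and in old HSCs the lowest ratio was that of the deepest library, replicate 2, and the part of depth in the ratios was not tested. Groups were also without overlap where no early 5-FU group was compared. For Psmb9 over Psmb6 this held for PBS-3 d6 against PBS-1 d6 (-0.08) and for old against PBS-3 d6 (0.12), and for Psmb8 over Psmb5 it held for 5FU-3 d21 against PBS-3 d6 (0.18), a larger difference than that of 5FU-3 d6. Of the exons of Psmb9, 15.68% lie opposite to Tap1, whose reads cannot be told apart from those of Psmb9 if strand was not used.

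**Figure D3:**
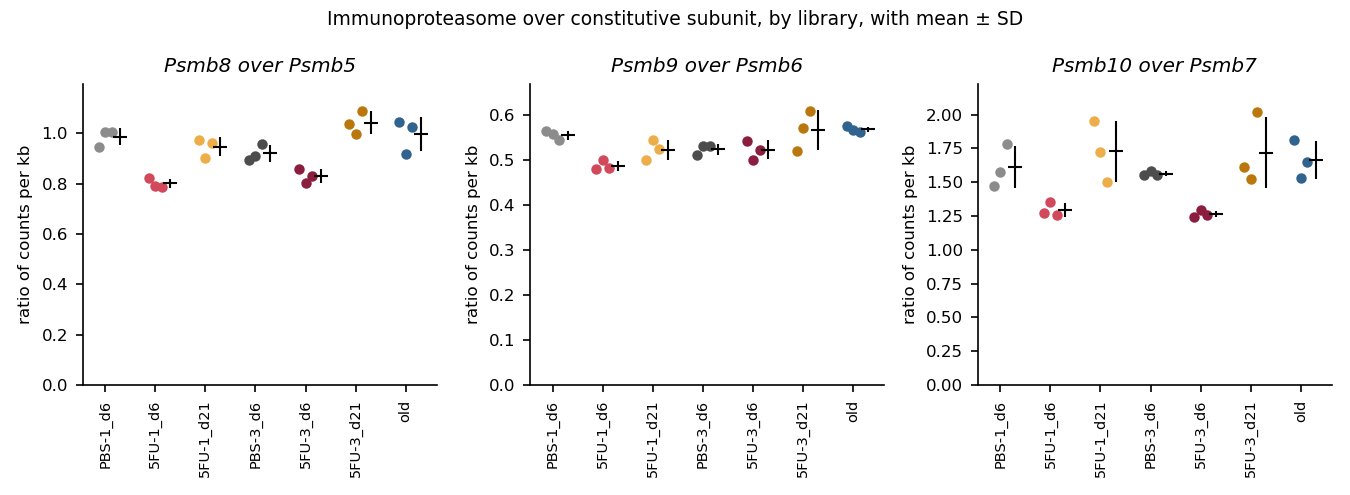
Ratio of each immunoproteasome gene to its constitutive counterpart in counts per kilobase (vertical axis) in each of the 21 libraries (points) by group (horizontal axis). For Psmb8 over Psmb5, the 5FU-1 d6 libraries lie between 0.789 and 0.822 and the PBS-1 d6 libraries at 0.948 or above.

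To follow the genes as HSCs left the response, day 21 was compared with day 6 after 5-FU. After 1 administration, 27 of 48 genes were lower and 0 were higher at day 21 than at day 6, against 13.7% lower and 12.3% higher of all 12589 genes tested. The median log2 fold change was -0.34, against -0.01 for all genes tested. In this fit all 1980 dense genes had a median of -0.18, with 23.7% lower and 5.45% higher. The 31 dense proteasome genes had a median of -0.36, with 21 lower. The count was 9 without 5FU-1 d6 replicate 2, 10 without its replicate 1, 13 without its replicate 3, and 13 and 12 without 5FU-1 d21 replicates 2 and 3. It was 27 when the dense genes were fitted apart, with a median of -0.19, and in that fit 20.5% of all dense genes and 12.5% of the others were lower. Totals were 23395821 to 27771296 counts in 5FU-1 d6 and 25270496 to 36669644 counts in 5FU-1 d21. Column names of the 6 libraries of day 6 after 1 administration carry a suffix of unstated meaning that those of day 21 lack, so the suffix and the time cannot be told apart in this comparison.

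Every alpha gene except Psma8 fell between day 6 and day 21 after 1 administration. Psma7 went from 275, 292 and 294 CPM to 204, 182 and 189 CPM, with a log2 fold change of -0.58 ± 0.07 (edgeR adjusted p = 0.00278). Psma3 had a log2 fold change of -0.48 and Psma4 of -0.47. Of the 7 beta genes 5 fell, among them Psmb5 by 0.41 and Psmb7 by 0.57 on the log2 scale, and Psmb6 (-0.32, edgeR adjusted p = 0.06) and Psmb4 did not pass. Psmc1, Psmc3 and Psmc5 fell among the 6 ATPases, and 7 of the 11 non-ATPase subunits fell, led by Psmd6 with -0.46. Outside the particle, Psme2 fell from 183, 199 and 181 CPM to 122, 123 and 121 CPM, with a log2 fold change of -0.61 ± 0.07 (edgeR adjusted p = 0.00226). Psmg3 had -0.70 ± 0.13, Psmg1 -0.57 ± 0.10, Psme2b -0.65 ± 0.11 and Psme3 -0.30 ± 0.08, and all 4 passed.

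The immunoproteasome genes again did not pass, with log2 fold changes of -0.17 ± 0.10 for Psmb8, -0.22 ± 0.09 for Psmb9 and -0.16 ± 0.11 for Psmb10. The base chaperones Psmd5, Psmd9 and Psmd10 had values of 0.01, -0.02 and 0.12. Psmf1 was at 74.8, 80.7 and 83.5 CPM at day 21, with a log2 fold change of 0.24 ± 0.13 (edgeR adjusted p = 0.215), the highest of the 48 genes. The 9 genes that passed under all 14 alternatives were Psma3, Psma4, Psma7, Psmb7, Psmd6, Psme2, Psme2b, Psmg1 and Psmg3.

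After 3 administrations, 10 of 48 genes were lower and 0 were higher at day 21 than at day 6, against 10.8% lower and 8.68% higher of all 12553 genes tested (1361 and 1089 genes, or 977 and 1701 with library size alone). These were Psma3, Psma7, Psmc2, Psmd4, Psmd13, Psmd14, Psme2, Psme2b, Psmg2 and Psmg3. Psme2 went from 183, 178 and 174 CPM in 5FU-3 d6 to 129, 123 and 111 CPM in 5FU-3 d21, with a log2 fold change of -0.55 ± 0.09 (edgeR adjusted p = 0.00648). Psmc2 went from 163, 162 and 152 CPM to 117, 111 and 123 CPM, with -0.44 ± 0.08 (edgeR adjusted p = 0.0103). Psmg3 had -0.62 and Psma7 -0.49, and none of these 4 genes, all called on these same libraries, overlapped between the 2 days. Psmg2, which pairs with Psmg1, had -0.48 ± 0.11 (edgeR adjusted p = 0.0265), and Psmg1 had -0.28 ± 0.10 and did not pass. Psma3, Psmc2 and Psme2 passed under all 14 alternatives. The count lay between 3 and 6 when each of the 6 libraries was left out in turn, and with library size alone 4 genes were lower and Psmf1 was higher, with a median of -0.02 instead of -0.13. The count was 17 when the dense genes were fitted apart, of which Psmb8 was higher and 16 were lower. In that fit 19.3% of all dense genes and 10.5% of the others were lower.

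In this comparison the immunoproteasome genes had positive values, with 0.17 ± 0.08 for Psmb8, 0.10 ± 0.09 for Psmb9 and 0.12 ± 0.09 for Psmb10, and did not pass. Psmb8 stood at 35.0, 36.6 and 33.3 CPM at day 6 and at 40.3, 39.1 and 38.5 CPM at day 21. Psmf1 had the highest value of the 48 genes here too, at 0.31 ± 0.10 (edgeR adjusted p = 0.0680). Its level was 75.8, 71.8 and 82.5 CPM at day 6 and 90.5, 89.3 and 104 CPM at day 21. Psmf1 passed with DESeq2 and with library size alone as the normalization.

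**Figure D4:**
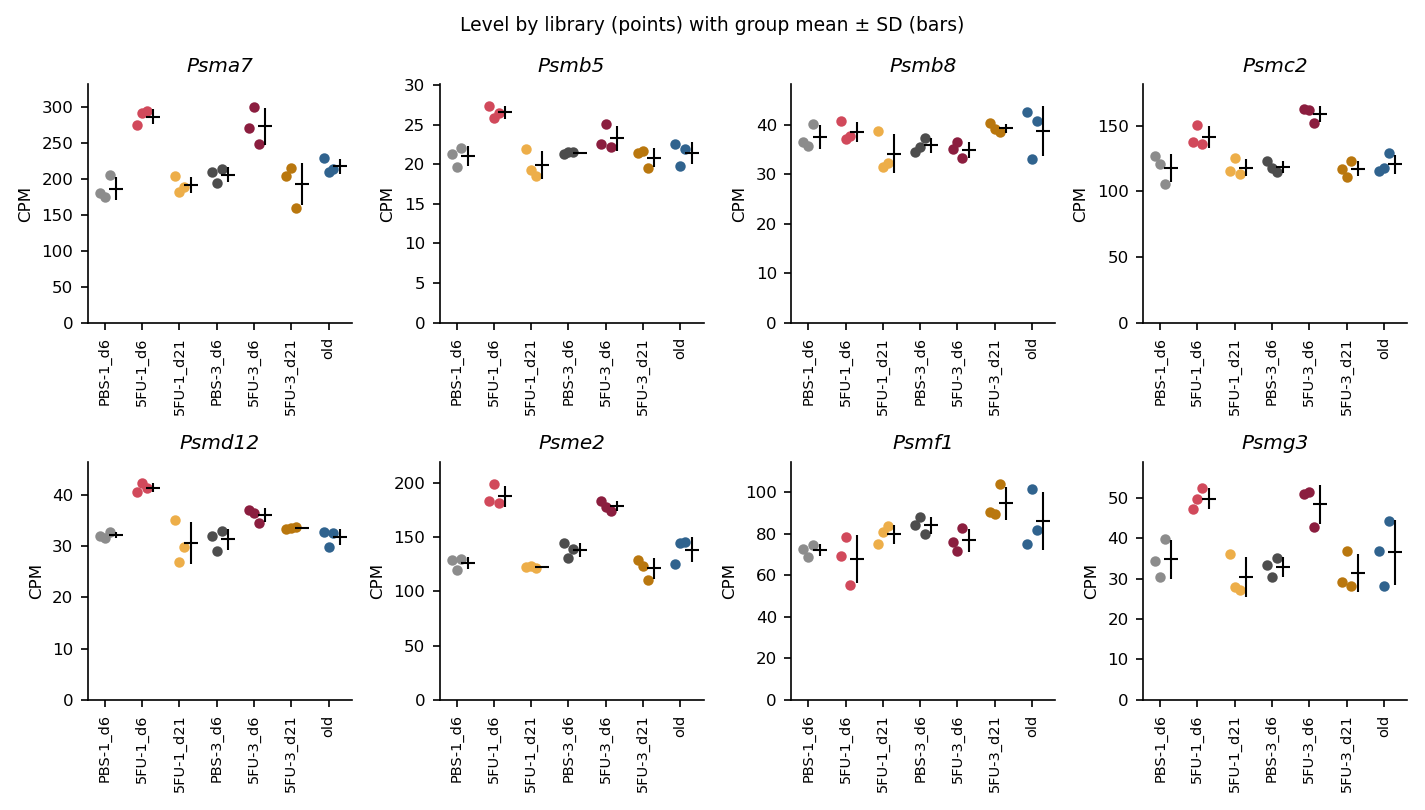
Level in CPM (vertical axes from 0) of Psma7, Psmb5, Psmb8, Psmc2, Psmd12, Psme2, Psmf1 and Psmg3 in each library (points) of the 7 groups (horizontal axis), with the mean and SD of 3 libraries as bars. Psma7 and Psme2 stand out in the 5-FU groups of day 6, at 248 to 300 CPM and 174 to 199 CPM, and Psmb8 stays between 31.5 and 42.6 CPM throughout.

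The genes at day 21 were then compared with the PBS groups of day 6. After 1 administration 0 of 48 genes passed with edgeR and 0 with DESeq2, and 1 had an unadjusted p below 0.05, namely Psma4 with a log2 fold change of -0.23 ± 0.09. This comparison crosses the suffix of the column names. The median was -0.10, and 0.0712% of all 12647 genes tested were higher and 0.15% lower. After 3 administrations 0 of 48 passed with either tool, and Psmg2 had an unadjusted p below 0.05, with a log2 fold change of -0.30 ± 0.11. Here the median was 0.03, and 0.0396% of all genes tested were higher and 0.00792% lower. Over all genes DESeq2 called 400 higher and 325 lower in the former comparison and 226 higher and 366 lower in the latter, and none of these was a proteasome gene. A p that misses the threshold does not show that levels were equal. The summed level of the 49 genes was 2419 ± 66.0 CPM in 5FU-1 d21 and 2496 ± 88.9 CPM in 5FU-3 d21, against 2453 ± 79.9 CPM in PBS-1 d6 and 2546 ± 48.9 CPM in PBS-3 d6. For the 31 dense genes it was 833 ± 61.3 and 911 ± 16.0 CPM at day 21, against 908 ± 31.2 and 882 ± 37.4 CPM. For the other 18 it was 1586 ± 4.73 and 1584 ± 74.0 CPM, against 1544 ± 52.9 and 1664 ± 40.2 CPM.

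Old HSCs were compared with PBS-3 d6. None of the 48 genes passed with edgeR or DESeq2, and 0 had an unadjusted p below 0.05. Of all 12847 genes tested, 0.553% were higher and 0.444% lower in old HSCs. The log2 fold changes ranged from -0.14 for Psme2b to 0.18 for Psme4, with a median of 0.04. The summed level of the 49 genes in old HSCs was 2616 ± 122 CPM, with 911 ± 85.0 CPM for the 31 dense genes and 1706 ± 64.5 CPM for the other 18. With PBS-1 d6 as the young group, which crosses the suffix of the column names, the count was 0 as well. Between the PBS groups themselves, PBS-3 d6 and PBS-1 d6, 0 of 48 genes passed with either tool, and 2 had an unadjusted p below 0.05 (Psmd4 with 0.18 and Psmf1 with 0.23). The percentage of all genes that passed there was 0.00781 in each direction. The suffix of the column names is crossed here too.

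Over the 7 groups, 35 of the 49 genes had their highest mean level in 5FU-1 d6 and 8 had it in 5FU-3 d6, and 33 had their lowest in 5FU-1 d21. Between the lowest and the highest of the 21 libraries Psma7 varied from 160 to 300.1 CPM and Psma3 from 321 to 544 CPM. These orders are descriptions, since neighbouring groups often overlap, and they were not counted over all genes. As a class, the 1980 dense genes had a median log2 fold change of 0.11 in 5FU-1 d6 against PBS-1 d6. In 5FU-1 d21 against 5FU-1 d6 their median was -0.18. Of the 2 genes named for a partner, Psme3ip1 fell after 1 administration (-0.38 ± 0.06, edgeR adjusted p = 0.00681) and had -0.04 after 3, and Psmc3ip rose after 3 administrations (0.74 ± 0.14, edgeR adjusted p = 0.0153).

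**Figure D5:**
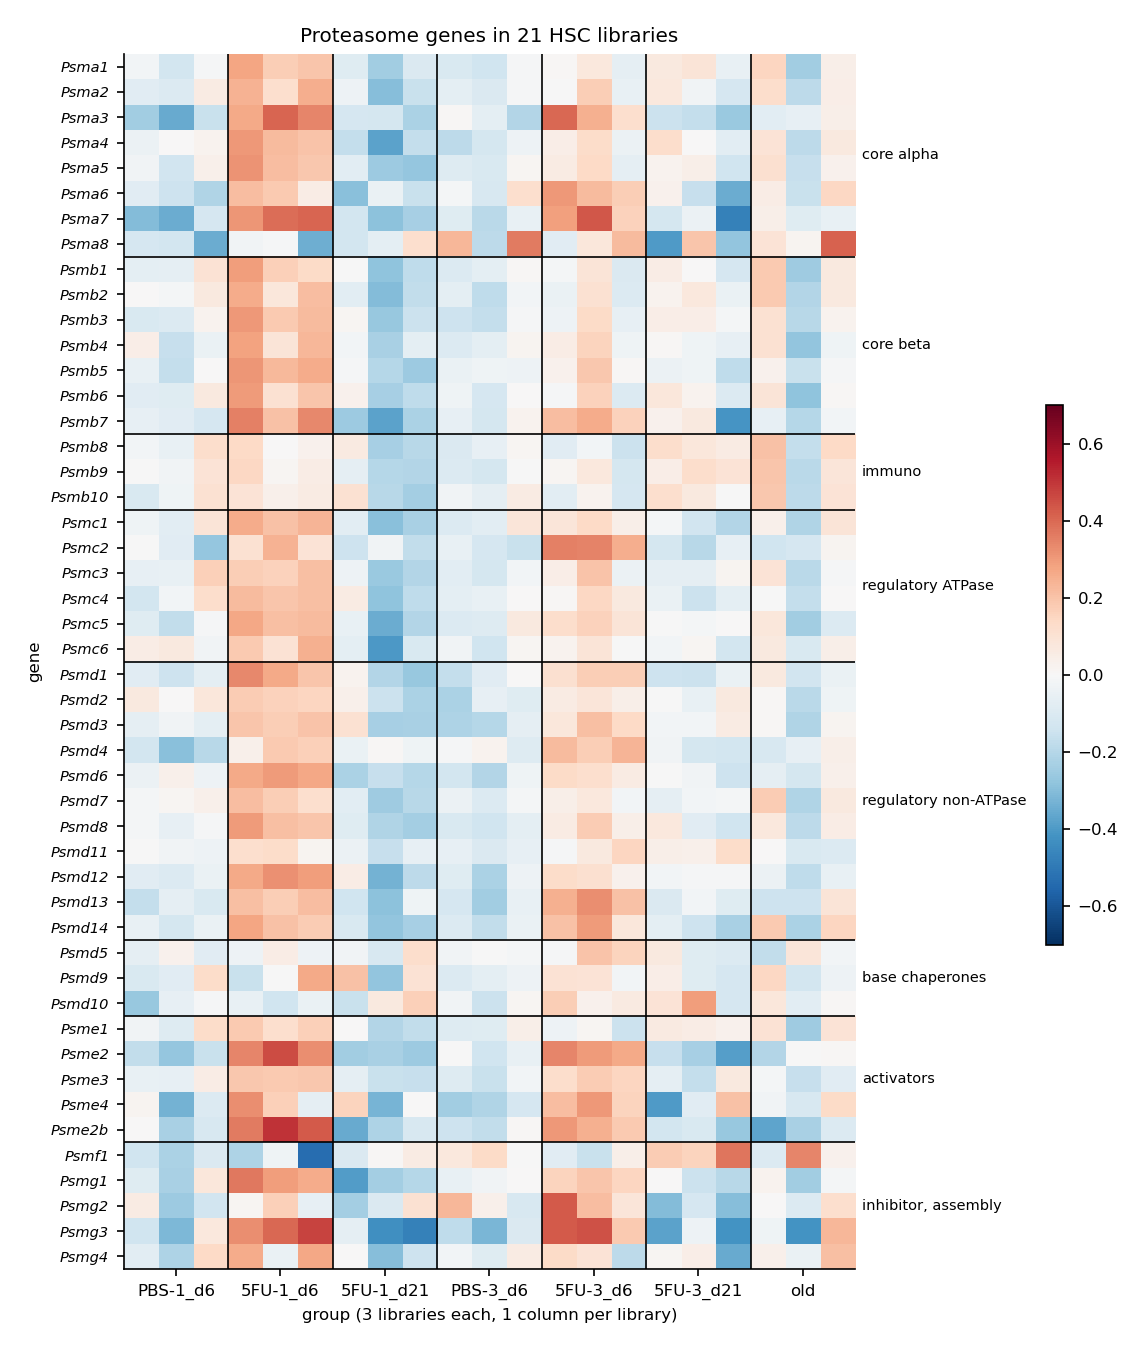
Heat map of the 48 tested proteasome genes (rows, by subgroup) in the 21 libraries (columns, by group), with colour for the log2 ratio of the level in CPM to the gene's mean over all libraries. The 5FU-1 d6 columns are the warmest for 35 of the 48 genes by group mean, and 5FU-1 d21 columns the coolest for 33. These orders were not counted over all genes.

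Among 11 partners of the proteasome without a Psm name that were tested, the deubiquitinases of the regulatory particle rose at day 6. Uchl5 had log2 fold changes of 0.66 after 1 and 0.53 after 3 administrations, and Usp14 of 0.46 and 0.49, and all 4 values passed. Ecpas, a proteasome adaptor, rose by 0.37 after 3, whereas Zfand5, a stress-induced activator, fell by 0.33 and 0.34. This gave 2 higher and 1 lower after 1 administration and 3 higher and 1 lower after 3, to be read against 11.5% and 9.84% higher among all genes. At day 21 against day 6 after 1 administration 5 of the 11 fell, namely Adrm1, Pomp, Sem1, Uchl5 and Usp14, and Akirin2 rose. After 3 administrations Uchl5 and Usp14 fell and Zfand5 rose. Among all genes tested 13.7% fell and 12.3% rose from day 6 to day 21 after 1 administration, and 10.8% fell and 8.68% rose after 3.

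Of 9 tested genes that control proteasome transcription, Nfe2l1 itself had log2 fold changes of -0.16 and -0.18 at day 6 after 1 and 3 administrations and did not pass. Nfe2l2 had -0.02 and -0.27 (edgeR adjusted p = 0.0548 for the latter). Bach1, a repressor at the same sites, had -0.80 after 1 administration, and its partner Mafk -0.50, and both passed. Ddi2, the protease that releases Nfe2l1, rose by 0.75 after 3 administrations. Of the 9 genes 0 rose and 2 fell after 1, and 1 rose and 0 fell after 3. Among all genes tested 11.5% rose and 10.6% fell after 1, and 9.84% rose and 8.3% fell after 3. Bach1 rose at day 21 by 0.98 and 0.62 after 1 and 3 administrations. From day 6 to day 21, 3 of the 9 genes rose and 1 fell after 1 administration, and 1 rose and 1 fell after 3. The shares of all genes tested were 12.3% higher and 13.7% lower after 1, and 8.68% higher and 10.8% lower after 3.

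Of 19 genes for ubiquitin, its activation and the shuttles that bring substrates, 3 rose and 0 fell after 1 administration (Rad23b 0.43, Ube2d3 0.40 and Rps27a 0.36). After 3 administrations 5 rose, for example Bag6 (0.48), Nploc4 (0.48) and Uba1 (0.40), and Ubb fell (-0.18). From day 6 to day 21, 1 of the 19 genes rose and 1 fell after 1 administration, and 1 rose and 2 fell after 3. The receptor Sqstm1 rose between day 6 and day 21 by 0.54 and 0.49. Of 17 genes of antigen presentation and the interferon response, which use the peptides of the immunoproteasome or induce it, 2 rose after 1 administration (Irf8 1.95 and Ifngr2 0.54) and H2-K1 fell (-0.22). After 3 administrations Ifngr2 rose (0.44), and Ifit1 (-1.15) and Irf1 (-0.34) fell. At day 21 against day 6, 3 of the 17 rose and 1 fell after 1 administration, and 6 rose and 2 fell after 3, with H2-D1, H2-K1 and Tapbp higher in both. The day 6 counts of these lists (3 of 19, 5 of 19, 2 of 17 and 1 of 17 higher) lie near or below the 11.5% and 9.84% of all genes, except for the 5 of 19 after 3 administrations, whose difference from all genes was not tested. From day 6 to day 21, 12.3% and 8.68% of all genes rose after 1 and 3 administrations, and 13.7% and 10.8% fell.

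Other lists of genes were read in the same comparisons. Of 20 cell cycle genes, 13 rose and 0 fell at day 6 after 1 administration and 19 rose and 0 fell after 3, and 20 and 19 fell from day 6 to day 21. Among all genes tested 11.5% and 9.84% rose at day 6, and 13.7% and 10.8% fell from day 6 to day 21. At day 6 the median log2 fold change of this list was 0.37 after 1 and 0.665 after 3 administrations. That of the proteasome genes was 0.24 and 0.12. The 20 cell cycle genes summed to 2033 to 2113 CPM in PBS-1 d6 and to 2770 to 2992 CPM in 5FU-1 d6. In PBS-3 d6 the cell cycle sum was 1773 to 2128 CPM, and in 5FU-3 d6 it was 3067 to 3592 CPM. The summed level of 13 HSC markers was 4790 to 5240 CPM in PBS-1 d6 and 3762 to 3889 CPM in 5FU-1 d6, and 4642 to 5039 CPM in PBS-3 d6 and 3316 to 3461 CPM in 5FU-3 d6. These sums rest on abundant genes such as Kit: 3 of the 13 rose and 5 fell after 1 administration, and 1 rose and 6 fell after 3. The 13 myeloid markers summed to 106 to 142 CPM in PBS-1 d6 and to 68.0 to 82.6 CPM in 5FU-1 d6. Ctsg, Elane and Ly6g were at or under 3 counts in every library of 5FU-1 d6, and Ctsg was so in every library of PBS-1 d6 too. The 8 megakaryocyte markers summed to 184 to 224 CPM and 113 to 118 CPM, and the 8 erythroid markers in the table to 38.9 to 43.0 CPM and 70.4 to 72.4 CPM in the same groups. Of the 6 erythroid markers tested 1 rose and 2 fell, with a median log2 fold change of -0.64, so the sum and the median differ in sign. The part of the cell cycle and of other cell types in the proteasome values was not tested.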

How the data were processed

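RNA sequencing of mouse HSCs in 21 libraries was analysed. The authors prepared cDNA from sorted cells with a SMART-Seq v4 kit and Nextera XT libraries, aligned single-end reads of 75 bases to mm10 with TopHat 2.0.13 and quantified them with Cufflinks 2.2.1 and Cuffdiff, as the methods and the submitters' processing notes state. The values used are whole-number read counts per gene symbol, without normalization, that the authors deposited for 21000 symbols. The program that made the counts and its use of strand are not given in the sources used here.

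Counts were tested in R 4.3.3 with edgeR 4.0.16, separately for each comparison of 2 groups of 3 libraries (12 libraries for the interaction). filterByExpr removed low genes, TMM gave the normalization factors, and p-values of the quasi-likelihood F test were adjusted by Benjamini-Hochberg over all genes kept at a threshold of 0.05. The standard error is the absolute log2 fold change over the square root of F. Levels are CPM with TMM factors over all 21 libraries. A floor of 3 counts per library corresponded to 0.0776 to 0.135 CPM. Ratios were compared by two-sided exact permutation tests. Coordinates, lengths and overlaps are from GENCODE vM21 on GRCm38 (20903 of 21000 symbols with a length), and transcript numbers and promoters from RefSeq GRCm38.p6. The scripts were tested on simulated counts.

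Values are given for the catalytic pairs, activators, inhibitor and assembly chaperones, for the members with the largest and the smallest change of each core and regulatory subgroup in the day 6 comparisons, and for members called against their subgroup. Other genes were named as called or for the gaps they fill, after their values were seen. The members and lists were chosen with earlier results of these data known. Replicate numbers did not pair libraries (mean correlation of same-numbered libraries -0.0251 to 0.0303), and no libraries of the same group were copies of each other. Copies between groups were not looked for. Alternatives were other size factors, library size alone, DESeq2 1.42.0, other count filters, a replicate block, all libraries in one fit, leaving out each library, PBS-1 d6 as the young group and, chosen after seeing the data, the dense single-transcript genes fitted apart. The values of 1 gene of the lists are not reported here.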

Additional observations from a re-analysis of the deposited data

How the results depend on the processing

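The direction of every call was kept: over 3857 gene results of 29 named genes under the alternatives, 3691 stayed on the same side of the threshold with the same direction where called, 138 lost a call, 28 gained one and 0 reversed. Only 476 of the 3857 results were of genes called in the main fit, and the 138 lost calls are among these 476. Where a gene was not called in the main fit, the sign differed in 218 results. Among 5-FU against PBS at day 6 after 1 administration (20 genes called), library size alone gave 8 and the replicate block 8, and other settings 16 to 22. After 3 administrations (6 called), library size alone gave 2, the replicate block 3, DESeq2 13, all 21 libraries in one fit 13 and dense single-transcript genes fitted apart 16. For day 21 against day 6 after 1 administration (27 called), the replicate block gave 22 and other settings 23 to 35. After 3 administrations (10 called), library size alone gave 5 (1 higher and 4 lower), dense genes fitted apart 17, the replicate block 7 and other settings 8 to 15. Leaving out each library in turn gave 7 to 10, 2 to 4, 9 to 30 and 3 to 6 in these 4 comparisons, where fewer libraries enter the fit. The cause of the other changes was not tested. In the other 5 comparisons the count was 0 under every alternative run, the replicate block included. Library size alone moved the median of all genes to -0.111 after 3 administrations at day 6 and to 0.117 for day 21 against day 6. Same-numbered libraries did not deviate together, so the replicate block rests on a shared number only. At 3 libraries a group, changes of the size seen here lie close to the threshold.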
